A study of Mus musculus with 4 samples.

Results

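The 10 genes described here are Fos, Fosb, Jun, Junb, Jund, Atf3, Egr1, Ier2, Btg2 and Zfp36, named as AP-1 and immediate early genes and taken by symbol from the 27998 genes counted in 4 single-cell RNA libraries. The libraries came from MMTV-neu mice of the FvB strain. Their transgene, rat neu (the gene Erbb2, which encodes HER2), is expressed in mammary epithelium from the MMTV promoter. All groups carry the transgene, and none is a non-transgenic control. The late lung library came from lungs of mice over 20 weeks old that bore primary tumors, and the early lung library from lungs of mice of 14 to 18 weeks without a palpable tumor. The primary tumor library came from tumors of the late stage, and the early lesion library from mammary glands of the early stage. Per the labels' protocols, CD45- HER2+ cells were sorted and captured with 10x Chromium 3' v2 chemistry, which counts molecules (UMIs) at the 3' end of a transcript. Each group has 1 library, and the sources used here do not say whether it came from 1 mouse or from several. A barcode was taken as a cell with at least 500 UMIs, at least 250 detected genes and at most 20% mitochondrial UMIs, which left 210 cells in the late lung, 185 in the early lung, 434 in the primary tumor and 1318 in the early lesion.

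Immediate early genes are transcribed within minutes of a growth factor, cytokine or stress signal, without new protein synthesis, and their short-lived mRNAs decline quickly once the signal ends. Fos and Jun family proteins pair through leucine zippers to form AP-1, a dimer that binds DNA and acts downstream of receptor kinases such as HER2 by way of MAP kinases. In mammary and other solid tissue these genes are also known to be induced while the tissue is dissociated into single cells. Fos and Fosb encode Fos partners that need a Jun protein to bind DNA, Jun, Junb and Jund encode the Jun partners, and Atf3 encodes a stress-induced bZIP repressor that can pair with Jun proteins. Egr1 encodes a zinc finger transcription factor, Ier2 a nuclear protein of the immediate early response, Btg2 an antiproliferative protein that recruits the CCR4-NOT deadenylase, and Zfp36 (tristetraprolin) a protein that binds AU-rich elements and promotes decay of the mRNAs that carry them.

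On mm10, GENCODE release M21 places Fos at chr12:85473890-85477273 on the plus strand, Fosb at chr7:19302696-19310051 on the minus strand and Jun at chr4:95049034-95052222 on the minus strand. Junb lies at chr8:84974484-84978718 (minus), Jund at chr8:70698949-70700616 (plus), Ier2 at chr8:84661331-84662852 (minus) and Zfp36 at chr7:28376784-28380253 (minus). Atf3 lies at chr1:191170296-191218039 and Btg2 at chr1:134075170-134079120, both on the minus strand. Junb overlaps the oppositely oriented Prdx2, which held 3408 UMIs over the 4 libraries, and Jun overlaps the antisense gene Junos, which held 21. Whether strand was used in counting is not given in the sources used here, so UMIs of these pairs may be split uncertainly.

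Promoters of 4 of the genes are shown because they hold elements known from signal-induced genes: the 250 bases before the RefSeq start of Fos (chr12:85473640-85473889, plus strand), Fosb (chr7:19310046-19310295, minus strand), Btg2 (chr1:134079156-134079405, minus strand) and Zfp36 (chr7:28379229-28379478, minus strand), from RefSeq on GRCm38.p6, each written 5' to 3' on the strand of the gene. Capitals mark the CRE TGACGTCA or its core TGACG, the TATA box TATAAA, and the CArG box bound by serum response factor.
Fos: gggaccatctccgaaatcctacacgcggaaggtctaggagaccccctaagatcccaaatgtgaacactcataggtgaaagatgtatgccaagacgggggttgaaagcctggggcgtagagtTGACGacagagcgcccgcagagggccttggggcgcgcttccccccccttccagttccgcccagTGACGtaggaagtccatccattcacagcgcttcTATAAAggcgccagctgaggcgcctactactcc
Fosb: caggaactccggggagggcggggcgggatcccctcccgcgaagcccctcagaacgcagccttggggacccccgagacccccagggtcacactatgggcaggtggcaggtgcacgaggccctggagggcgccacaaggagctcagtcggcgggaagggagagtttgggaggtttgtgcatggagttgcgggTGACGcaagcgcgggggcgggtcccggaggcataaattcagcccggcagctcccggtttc
Btg2: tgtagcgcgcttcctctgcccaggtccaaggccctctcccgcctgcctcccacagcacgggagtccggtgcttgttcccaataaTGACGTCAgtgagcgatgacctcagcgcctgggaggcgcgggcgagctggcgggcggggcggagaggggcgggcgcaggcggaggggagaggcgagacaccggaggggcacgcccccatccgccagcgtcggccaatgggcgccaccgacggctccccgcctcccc
Zfp36: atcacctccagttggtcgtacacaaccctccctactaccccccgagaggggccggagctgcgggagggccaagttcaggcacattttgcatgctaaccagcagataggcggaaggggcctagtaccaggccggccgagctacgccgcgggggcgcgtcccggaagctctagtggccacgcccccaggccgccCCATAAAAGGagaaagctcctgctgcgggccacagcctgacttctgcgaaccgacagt
Of the 10 genes, 8 could be searched, on both strands, and the same windows of 27025 RefSeq promoters gave the background. The core TGACG, which lies inside TGACGTCA, was present in Fos, Fosb, Junb, Atf3 and Btg2, 5 of 8, against 17.9% of all promoters. In Fos it lay 129 to 125 and 66 to 62 bases before the start, with TATAAA at 33 to 28 bases, an element found in 13.0% of promoters. The whole TGACGTCA was found in Btg2, 166 to 159 bases before the start, and in 1.62% of promoters. A CArG box was found in Zfp36, 58 to 49 bases before the start, and in 1.40% of promoters. The AP-1 site itself, TGACTCA or TGAGTCA, was in 0 of the 8 windows and in 4.43% of promoters, and the EGR site GCGTGGGCG in 0 of 8 and in 0.540%. RefSeq and GENCODE starts differ for some of the genes. The windows of Zfp36 and Atf3 lay inside the GENCODE spans of these genes. The Jund window ended at chr8:70697738, before the GENCODE start at 70698949. Bases farther than 250 before the RefSeq start were not searched. A match is a description of the letters in this window, and the data hold no binding measurement.

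The libraries differed in depth and in content. The median cell held 811 UMIs in the late lung, 772 in the early lung, 1657.5 in the primary tumor and 2360 in the early lesion. Cells over 10000 UMIs numbered 8, 1, 18 and 21 in that order and held 42.2%, 5.60%, 54.5% and 6.5% of the UMIs. No cell barcode was shared by any pair of libraries. The labels call all the cells breast cancer cells. The 16 mammary luminal markers, however, summed to 2590 CPM (summed UMIs of the cells, scaled to a common library total) in the late lung and 1237 CPM in the early lung, against 83613 CPM in the primary tumor and 108237 CPM in the early lesion, and 4 and 3 of the 16 were at 0 in the late and early lung. The 10 endothelial markers summed to 8980 CPM in the late lung and 5509 CPM in the early lung, against 58.6 CPM in the tumor and 76.4 CPM in the lesion, and the 7 airway secretory markers to 86692 and 117073 CPM in the late and early lung, against 9.86 and 76.2 CPM in the tumor and the lesion. By the clustering described below, 8 of 210 late lung and 1 of 185 early lung cells were mammary luminal-like. Airway secretory-like cells numbered 21 in the late and 15 in the early lung. Lung cell types thus made up most of the lung libraries, and any comparison of a lung with a primary site also compares these cell types. In summed counts, fewer cells that express a gene and less RNA per cell cannot be told apart.

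Together the 10 genes held 870 UMIs in the late lung, 238 in the early lung, 1286 in the primary tumor and 10920 in the early lesion, which is 2111, 1169, 704 and 2781 CPM. Fos made up 7.47%, 10.5%, 10.3% and 34.0% of these UMIs in the same order, and Jund 21.6%, 16.8%, 44.3% and 9.17%. Levels are given below as summed UMIs and CPM. Intervals are exact 95% Poisson intervals, which cover counting error only, and not the spread between cells or between mice.

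Among the Fos partners, Fos had 65 UMIs in the late lung (158 CPM), 25 in the early lung (123 CPM), 133 in the primary tumor (72.8 CPM) and 3710 in the early lesion (945 CPM, interval 915 to 976). The lesion stood far above the other libraries, whose neighbouring intervals overlapped. Only 25 of 434 tumor cells held a Fos UMI, and the 2 cells with most held 66.2% of the tumor's Fos UMIs. In the lesion 821 of 1318 cells held at least 1, and the 2 with most held 2.43%. Fosb had 3 UMIs in the late lung (7.28 CPM), 0 in the early lung, 0 in the primary tumor and 139 in the early lesion (35.4 CPM). In a library at 0, a sum of 3 UMIs would give 14.7 CPM in the early lung and 1.64 CPM in the tumor.

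Among the Jun partners, Jun had 284 UMIs in the late lung (689 CPM), 77 in the early lung (378 CPM), 208 in the primary tumor (114 CPM) and 1531 in the early lesion (390 CPM). The late lung was highest and the tumor lowest, and the early lung and the lesion overlapped. Of the late lung's Jun UMIs, 210 lay in its 8 cells over 10000 UMIs, and without cells of that depth Jun stood at 311 CPM in the late lung, 338 CPM in the early lung, 98.8 CPM in the tumor and 381 CPM in the lesion. Junb had 105 UMIs in the late lung (255 CPM), 27 in the early lung (133 CPM), 83 in the tumor (45.5 CPM) and 1385 in the lesion (353 CPM), with no overlap between any neighbours in that order of levels. Jund had 188 UMIs in the late lung (456 CPM), 40 in the early lung (196 CPM), 570 in the tumor (312 CPM) and 1001 in the lesion (255 CPM). Jund thus had the narrowest range of the Jun genes, and was the 1 gene of the 10 for which the tumor lay above the lesion. Without cells over 10000 UMIs it stood at 245 CPM in the tumor and 250 CPM in the lesion, with overlapping intervals. Atf3 had 7 UMIs in the late lung (17.0 CPM), 4 in the early lung (19.6 CPM), 5 in the tumor (2.74 CPM) and 313 in the lesion (79.7 CPM). Outside the lesion no library held more than 7 Atf3 UMIs.

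Among the others, Egr1 had 34 UMIs in the late lung (82.5 CPM), 6 in the early lung (29.5 CPM), 6 in the primary tumor (3.29 CPM) and 200 in the early lesion (50.9 CPM). A single late lung cell of 10727 UMIs held 19 of the 34, and 45 UMIs of the 10 genes together. With called doublets removed, the late lung's UMIs of the 10 genes went from 870 to 825. Without cells over 10000 UMIs Egr1 stood at 21.0 CPM in the late lung and 51.5 CPM in the lesion. Ier2 had 76 UMIs in the late lung (184 CPM), 18 in the early lung (88.4 CPM), 171 in the tumor (93.7 CPM) and 1619 in the lesion (412 CPM), with the lesion highest and the early lung and tumor overlapping. Btg2 had 83 UMIs in the late lung (201 CPM), 23 in the early lung (113 CPM), 50 in the tumor (27.4 CPM) and 532 in the lesion (135 CPM). Its order differed from that of Ier2, with the late lung above the lesion and the tumor lowest. Zfp36 had 25 UMIs in the late lung (60.7 CPM), 18 in the early lung (88.4 CPM), 60 in the tumor (32.9 CPM) and 490 in the lesion (125 CPM), and each neighbour in its order overlapped the next. Over the 10 genes the early lesion was highest for 6 (Fos, Fosb, Junb, Atf3, Ier2, Zfp36) and the late lung for 4 (Jun, Jund, Egr1, Btg2), where the late lung and lesion intervals of Egr1 overlapped. Without cells over 10000 UMIs the lesion was highest for 8 and the late lung for 2 (Jund and Btg2), and the late lung and lesion intervals overlapped for both.

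**Figure D1:**
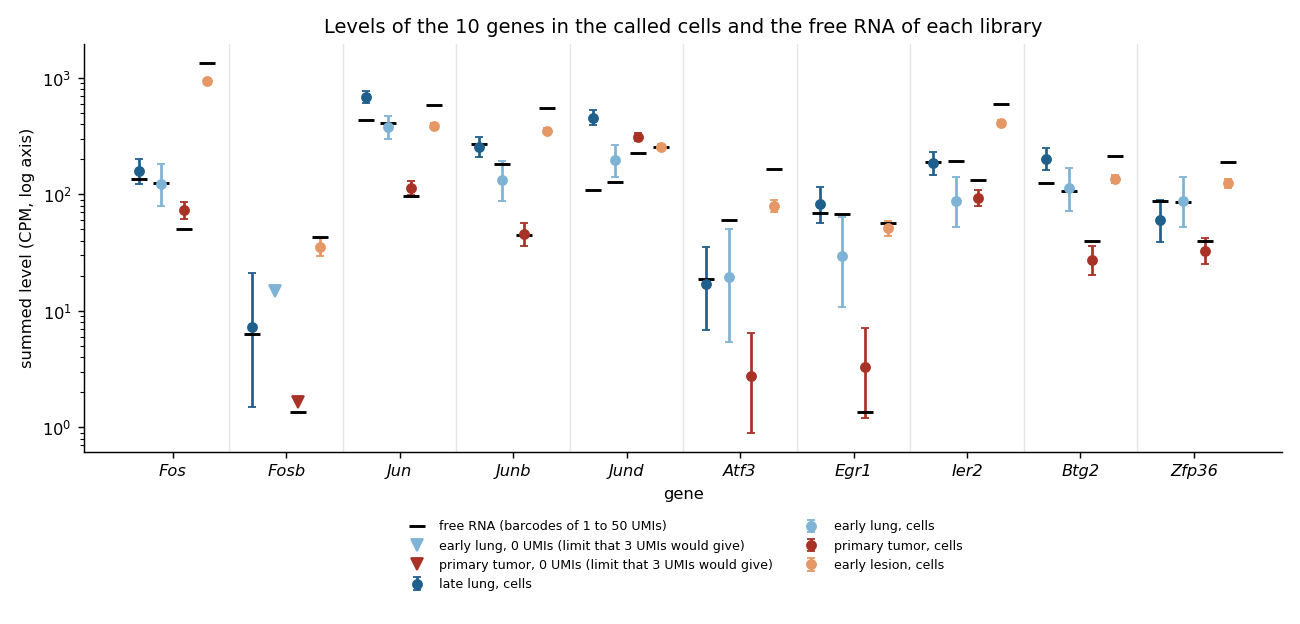
Level of each of the 10 genes (x axis) as CPM of UMIs summed over the cells of a library (y axis, log scale), with exact 95% Poisson intervals, for the late lung, early lung, primary tumor and early lesion from left to right; triangles mark a library with 0 UMIs at the level that 3 UMIs would give, and black dashes give the same gene in the free RNA of that library. The lesion points stand highest for Fos, at 945 CPM, and at or below their black dash for all 10 genes.

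The comparison of the tumor with the lesion asks how the stages of the primary site differ. With 1 library per group no test was possible. A gene was called higher or lower where its ratio of CPM was at least 2-fold and the exact 95% interval of the ratio excluded 1, among genes with at least 20 UMIs over both libraries. By this rule 9 of the 10 genes were called lower in the primary tumor than in the early lesion and 0 higher, against 6.68% of 9811 genes called lower and 24.5% called higher. The median log2 ratio was -2.62 over the 10 genes and 0.33 over all genes. Higher genes made up 78.6% of all calls, and 63.4% when sums were scaled by the median ratio.

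Atf3, at 2.74 CPM in the tumor and 79.7 CPM in the lesion, had a log2 ratio of -4.73 (interval -6.5 to -3.63). For Egr1 it was -3.84 (-5.42 to -2.81) and for Fos -3.69 (-3.96 to -3.45). Fosb was at least 21.5-fold lower, with 0 UMIs in the tumor taken as 3. These genes had the fewest UMIs in the tumor or, for Fos, most of them in 2 cells. Without cells over 10000 UMIs the log2 ratio was -4.99 for Fos, -3.25 for Egr1 and -3.13 for Btg2, each still called lower. Junb had a log2 ratio of -2.95 (-3.29 to -2.64), Btg2 of -2.29 (-2.76 to -1.89), Ier2 of -2.13 (-2.37 to -1.91), Zfp36 of -1.91 (-2.34 to -1.54) and Jun of -1.77 (-1.99 to -1.57). Jund was called neither, at 0.29 (0.14 to 0.44), and its ratio was -0.20 when every cell weighed the same. The 9 calls also held among cells of 1000 to 5000 UMIs with at most 5% mitochondrial UMIs, with 251 tumor and 791 lesion cells, and among mammary luminal-like cells alone, with 333 tumor and 1278 lesion cells. Over all genes, 10.7% were called lower and 14.1% higher in the former cells, and 11.2% lower and 13.2% higher in the latter.

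The comparison of the early lung with the early lesion sets the sites against each other at the early stage. It called 5 of the 10 genes lower and 0 higher, against 11.9% of 8776 genes lower and 22.1% higher. The median log2 ratio was -1.03 over the 10 genes, or -0.97 with Fosb at its bound, and 0.18 over all genes. Higher genes made up 65.0% of all calls, and 44.6% when sums were scaled by the median ratio. Fos, at 123 CPM in the early lung and 945 CPM in the lesion, had a log2 ratio of -2.92 (-3.57 to -2.38), and Ier2 of -2.18 (-2.98 to -1.56). Atf3 followed with -1.85 (-3.91 to -0.65), Junb with -1.39 (-2.02 to -0.86), and Fosb was at least 2.40-fold lower. The early lung sums behind these calls were 25 UMIs or fewer except for Junb, at 27. Jun, Jund, Egr1, Btg2 and Zfp36 were called neither, with log2 ratios between -0.68 (Egr1) and -0.04 (Jun). In cells of at least 1000 UMIs the calls of Fosb and Atf3 were lost, and without cells over 10000 UMIs Atf3 stood at -2.58.

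The comparison of the late lung with the primary tumor sets the sites against each other at the late stage. Of the 8 genes with enough UMIs, 5 were called higher in the late lung and 0 lower, against 20.6% of 8740 genes higher and 17.4% lower. The median log2 ratio was 1.80 over the 8 and 0.01 over all genes. Higher genes made up 54.2% of all calls, 42.3% when sums were scaled by the median ratio and 66.2% when every cell weighed the same. Egr1 had the largest log2 ratio, 4.56 (3.38 to 6.19), on 34 and 6 UMIs. Without cells over 10000 UMIs it was 2.09, with every cell weighing the same it was 1.78, and neither was called. Btg2, at 201 CPM in the late lung and 27.4 CPM in the tumor, had 2.87 (2.36 to 3.42). Jun had 2.60 (2.33 to 2.86), or 1.65 without cells over 10000 UMIs, Junb 2.49 (2.06 to 2.92) and Fos 1.12 (0.66 to 1.55), and the Fos call was lost with called doublets removed, at 0.63, with every cell weighing the same, at 0.84, and under median ratio scaling, at 0.86. Ier2 (0.98), Zfp36 (0.90) and Jund (0.55) were called neither, and Ier2 was at -0.33 when every cell weighed the same. Fosb and Atf3 had under 20 UMIs over both libraries and were not compared.

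The comparison of the late with the early lung called 3 of 8 genes higher and 0 lower, against 8.7% of 4552 genes higher and 3.45% lower. The median log2 ratio was 0.89 over the 8 genes and 0.05 over all genes. Higher genes made up 71.6% of all calls, 82.9% when sums were scaled by the median ratio and 43.9% when every cell weighed the same. Egr1 had a log2 ratio of 1.39 (0.22 to 3.03), Jund of 1.20 (0.72 to 1.75) and Ier2 of 1.03 (0.31 to 1.89). The 8 late lung cells over 10000 UMIs held 68.3% of the late lung's UMIs of the 10 genes, and without cells of that depth 0 genes were called, with Egr1 at -0.55, Jund at 0.64 and Ier2 at 0.05. The 4 comparisons share libraries in pairs, so their values are not independent of each other.

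**Figure D2:**
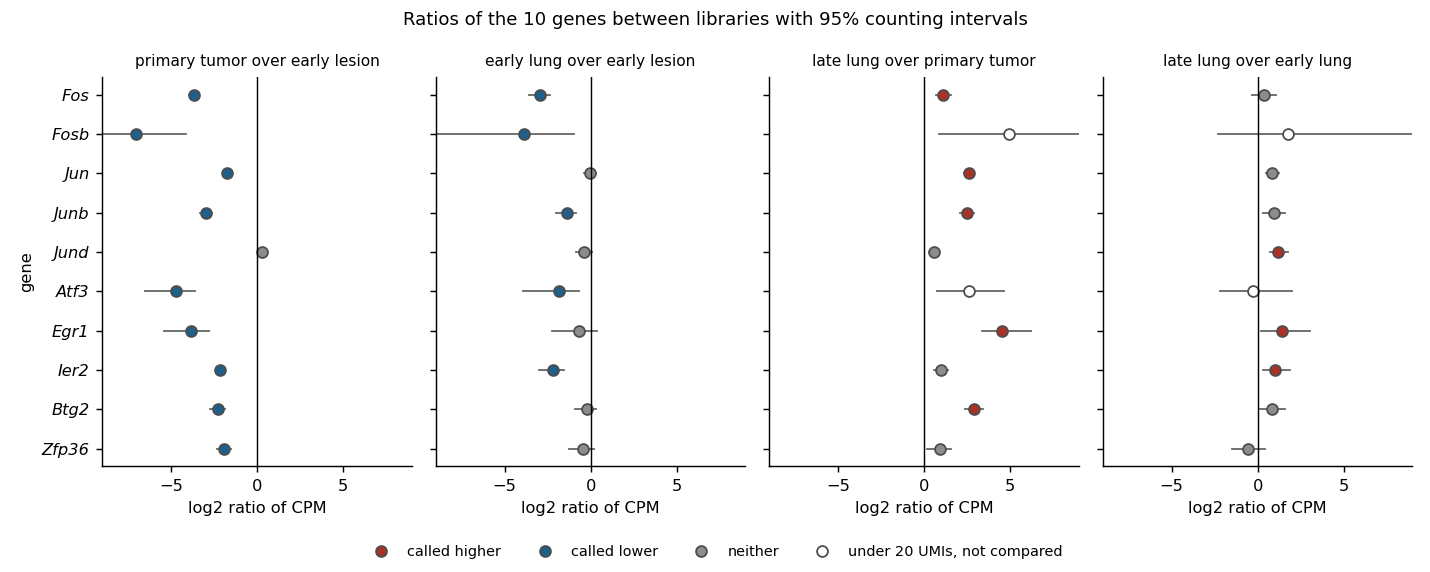
Log2 ratio of CPM (x axis) of each of the 10 genes (y axis) in the 4 comparisons, with 95% counting intervals; blue points were called lower, red points called higher, grey points neither, and open points had under 20 UMIs. All but Jund are blue in the tumor over the lesion, while red points appear only where the late lung is the first library.

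Free RNA, read from barcodes of 1 to 50 UMIs that hold no cell, held the same genes. The 10 genes summed to 1449 CPM in the free RNA of the late lung, 1360 CPM in the early lung, 633 CPM in the primary tumor and 4020 CPM in the early lesion. In the lesion all 10 genes were lower in the cells than in the free RNA, at 0.482 to 0.998 of it (median 0.675). The lowest was Atf3, at 79.7 CPM in cells and 165 CPM in free RNA, and the highest Jund, at 255 CPM in both. The free RNA of the tumor was below that of the lesion for all 10 genes, at least 2-fold for 9 of them, with Fos at 50.4 CPM in the tumor's and 1355 CPM in the lesion's. The free RNA of the late lung was at least 2-fold above that of the tumor for 8 genes and at least 2-fold below it for Jund. Shares over all genes were not computed for free RNA, so these counts are not read as particular to the 10 genes. The part of free RNA in the ratios between cells was not tested beyond subtracting fixed shares of 5% and 10%, after which all 9 tumor over lesion calls held.

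Shares of cells with at least 1 UMI were compared after every cell had been thinned to 500 UMIs. Fos was then found in 1.43% of late lung cells (exact binomial interval 0.30% to 4.12%), 2.16% of early lung cells (0.59% to 5.44%), 1.15% of tumor cells (0.38% to 2.67%) and 31.0% of lesion cells (28.5% to 33.5%). Cells filled with free RNA alone would give a background of 6.52%, 6.01%, 2.49% and 49.2% in the same order, above each Fos share. Shares at or below this background were found for 7 of 10 genes in the late lung, 8 in the early lung, 7 in the tumor and 9 in the lesion. Such a share shows neither presence nor absence of expression, since the background takes every UMI of a cell as free RNA. Jun was among these genes in both lungs, at 11.4% of late and 13.0% of early lung cells. Free RNA alone would give 19.6% and 18.6%, yet Jun stood above free RNA in endothelial-like cells of both lungs, as given below. Intervals lay above the background for Jund in the late lung, at 14.8% of cells (10.3% to 20.3%) where free RNA would give 5.34%, and for Atf3 in the tumor, which rests on 1 of 434 cells and on free RNA with 0 Atf3 UMIs. In the tumor Jund was found in 13.4% (10.3% to 16.9%), where free RNA would give 10.7%. Without thinning, 105 of 210 late lung, 109 of 185 early lung, 208 of 434 tumor and 189 of 1318 lesion cells held no UMI of any of the 10 genes. After thinning the shares of such cells were 66.2%, 71.4%, 76.7% and 43.1%, and the mean number of the 10 genes found per cell was 0.438, 0.411, 0.276 and 1.12.

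Depth within a library went with the level in different ways. In the late lung the 10 genes summed to 935 CPM in the 131 cells under 1000 UMIs and to 3416 CPM in the 8 cells over 10000. In the tumor the values were 594 CPM in 122 cells and 833 CPM in 18 cells. In the lesion the level was 4145 CPM in the 277 cells under 1000 UMIs, 2278 CPM in the 206 cells of 5000 to 10000 and 3470 CPM in the 21 deeper ones. At every depth the lesion lay above the tumor. The mitochondrial share went with the level less regularly. Lesion cells with at most 0.5% mitochondrial UMIs held 2744 CPM, and the 48 cells with over 5% held 4953 CPM.

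**Figure D3:**
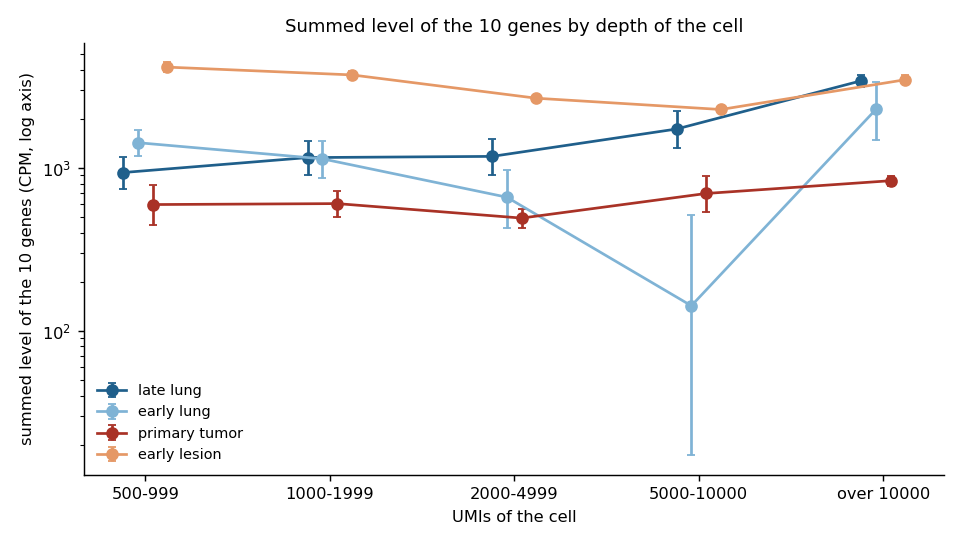
Summed level of the 10 genes (y axis, CPM on a log scale, with exact 95% Poisson intervals) against the depth of the cells in 5 classes of UMIs per cell (x axis), 1 line per library. The lesion line stays above the tumor line in every class, and the late lung line reaches 3416 CPM in its 8 cells over 10000 UMIs; the early lung points of the 2 deepest classes rest on 2 cells and 1 cell.

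Cells were clustered without these 10 genes and without 48 related genes, into 15 clusters. In both lungs the 2 largest classes were endothelial-like (55 late and 73 early lung cells) and alveolar type 1-like (93 and 61 cells), and Jun separated them. Jun stood at 1283 CPM in endothelial-like and 75.1 CPM in alveolar type 1-like cells of the late lung, a log2 ratio of 3.98 (2.95 to 5.55). In the early lung it stood at 918 CPM in endothelial-like and 98.1 CPM in alveolar type 1-like cells, a log2 ratio of 3.12 (2.03 to 4.72). Without cells over 10000 UMIs these ratios were 3.62 and 3.08. The free RNA held Jun at 436 CPM in the late and 411 CPM in the early lung, so endothelial-like cells stood above it and alveolar type 1-like cells below it in both libraries. Fos was at 0 UMIs in alveolar type 1-like cells of both lungs. In endothelial-like cells it was at 104 CPM in the late and 55.6 CPM in the early lung, and at 0 UMIs in the late lung without cells over 10000 UMIs. Of the early lung's 25 Fos UMIs, 12 lay in 12 fibroblast-like cells and 7 in 1 mammary luminal-like cell, against 4 in endothelial-like cells. Of the late lung's 65, 21 lay in endothelial-like cells, 20 in 1 unnamed cell and 19 in 8 mammary luminal-like cells.

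For Jund the interval of the ratio between the classes included 1 in both lungs. It was at 666 CPM in endothelial-like and 476 CPM in alveolar type 1-like cells of the late lung (log2 ratio 0.47, -0.04 to 1.04), and at 250 and 245 CPM in those of the early lung. Ier2 had 59 UMIs in endothelial-like and 2 UMIs in alveolar type 1-like cells of the late lung (log2 ratio 3.23, 1.62 to 6.62), and without cells over 10000 UMIs the ratio was 2.14 with an interval that included 0. In the early lung it had 167 CPM in endothelial-like cells and 0 UMIs in alveolar type 1-like cells, at least 3.40-fold higher. Endothelial-like cells held 73.6% of the late lung's and 55.5% of the early lung's UMIs of the 10 genes, with 49.2% and 35.3% of all UMIs. Without cells over 10000 UMIs they held 35.9% of the late lung's and 106 of 212 of the early lung's, with 22.8% and 31.5% of all UMIs. In the late lung 1 cell held 34.7% of that class's UMIs of the genes. Pericyte or smooth muscle-like cells had 750 CPM of the 10 genes in the late and 701 CPM in the early lung.

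**Figure D4:**
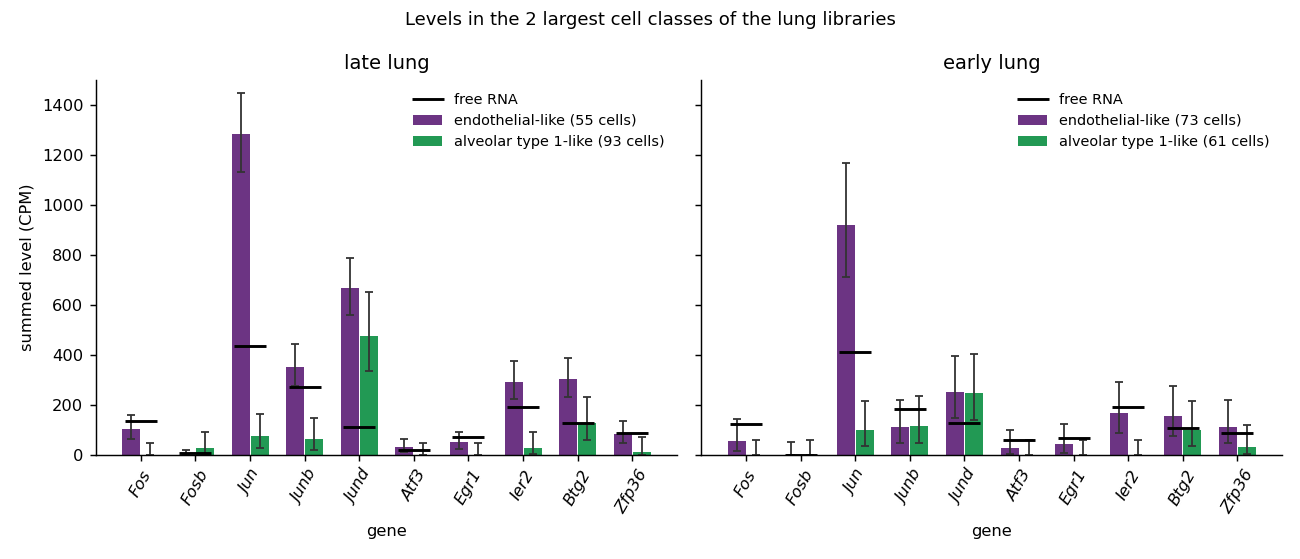
Levels of the 10 genes (y axis, CPM of summed UMIs with exact 95% Poisson intervals) in endothelial-like cells (purple) and alveolar type 1-like cells (green) of the late lung (left) and early lung (right); black dashes give the free RNA. The Jun bars of endothelial-like cells, at 1283 and 918 CPM, stand above the dash and those of alveolar type 1-like cells, at 75.1 and 98.1 CPM, below it.

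Mammary luminal-like cells made up 76.7% of primary tumor cells and 97.0% of early lesion cells, and summed to 543 CPM of the 10 genes in the tumor (491 to 598) and 2779 CPM in the lesion (2727 to 2832). The class was held by different clusters, cluster 2 in the tumor and clusters 0, 1, 3, 6, 7 and 11 in the lesion. Of the tumor's other cells, 78 fell in an unnamed cluster led by Car6 and Comp, at 475 CPM, and 21 in an unnamed cluster of very deep cells led by Xist and Nf1, at 845 CPM. Luminal markers summed to 121291 CPM and 95940 CPM in these clusters, which stayed unnamed because a marker of alveolar type 1 cells, Aqp5, was among their top 10 genes. These 99 unnamed cells held 68.0% of the tumor's UMIs of the 10 genes, 18 of the tumor's cells being over 10000 UMIs deep. The same 99 cells held 1070944 of the 1825842 UMIs of all genes in the tumor's cells. In the lesion the clusters ranged more widely. The 33 cells of a cluster led by Hp, Chil1, Lrg1 and Spp1 had 6801 CPM (6196 to 7449), with Fos at 3210 CPM and Jun at 1143 CPM, and 1 cell held 12.1% of these UMIs. This was the 1 lesion cluster of at least 20 cells that stood above the lesion's free RNA of 4020 CPM. The 79 cells of a cluster led by Ptn and the mitotic genes Ccnb1 and Cenpa had 3513 CPM, and the 101 cells of a cluster led by Apoe and Cldn4, with a median mitochondrial share of 3.91%, had 3378 CPM. The 435 cells led by the milk genes Glycam1 and Wap had 2777 CPM, the 281 shallow cells led by Nasp and Rspo1 had 2363 CPM, and the 347 cells led by Csn2 and Fabp3 had 2065 CPM. Between these clusters Fos ranged from 706 to 3210 CPM and Jund from 222 to 410 CPM.

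Over the thinned cells of the lesion, the genes were weakly but positively correlated. Pearson's r of log(1 + UMIs) over 1318 cells was positive for all 21 pairs of the 7 genes found in at least 5% of cells, with a median of 0.155 and a range of 0.031 to 0.319. Over all pairs of the 1199 genes found as often, the median was -0.001 and the 99th percentile 0.077. The highest pair was Fos with Jun (0.319), followed by Fos with Junb (0.27) and Jun with Junb (0.26), and the lowest was Jund with Zfp36 (0.031). Against the sum of the other 9 genes, Fos had r = 0.43, Jun 0.38 and Junb 0.35, and the other 7 genes lay between 0.20 (Egr1) and 0.27 (Atf3). Cells of 1 library share that library and its free RNA, and thinning equalised their depth. No r was computed within a cluster, and the part of clusters and of free RNA in these values was not tested. In the other libraries few cells held the genes, and no weak r is read there. The median was 0.045 over 6 pairs in the late lung, 0.062 over 3 pairs in the early lung and 0.114 for the 1 pair in the tumor, where the 99th percentile over all pairs was 0.223, 0.229 and 0.149.

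**Figure D5:**
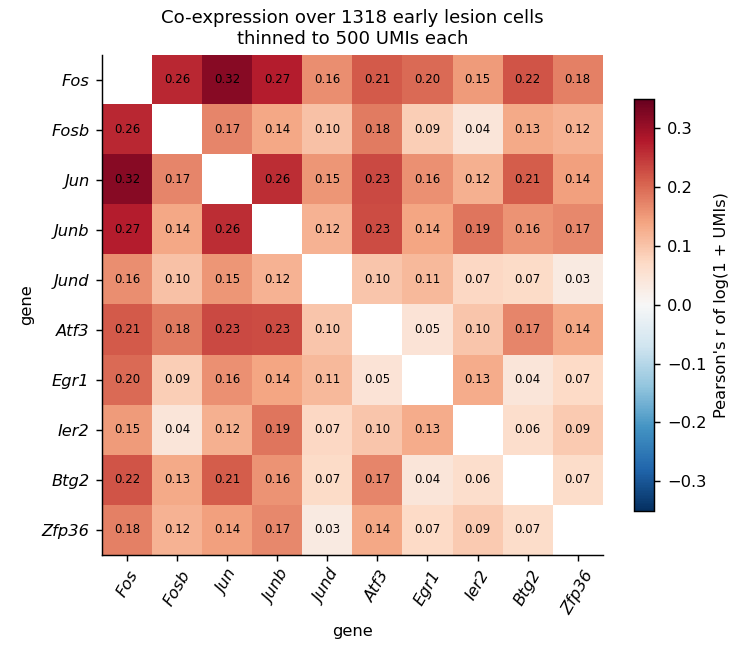
Pearson's r of log(1 + UMIs) for each pair of the 10 genes (both axes) over the 1318 early lesion cells, each thinned to 500 UMIs; red is positive and the colour scale runs from -0.35 to 0.35. Every pair is red, and the darkest is Fos with Jun, at r = 0.32, followed by Fos with Junb (0.27) and Fos with Fosb (0.26).

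By the rule for likeness, the genes with the highest r with the summed 10 genes were named. In the lesion, over 1192 genes with a median r of -0.006, they were Hspa1a (0.29), an inducible heat shock chaperone, Txnip (0.25), a thioredoxin inhibitor, Nfkbia (0.24), the NF-kB inhibitor, Lcn2 (0.21), Pnrc1 (0.18), Tob1 (0.17), an antiproliferative relative of Btg2, Cebpb (0.17), Hspb1 (0.16) and Btg1 (0.15). The lowest were the casein genes Csn1s2a (-0.18) and Csn2 (-0.16). In the tumor, over 434 cells, they were Myl12a (0.16), Actb (0.16), Nf1 (0.15), Atxn7l3b (0.15), Lrrc58 (0.14), and Cmas, Slc25a4, Ubb, Errfi1 and Ptp4a1, each at 0.13. In the late lung, over 210 cells, they were Txnip (0.30), Ly6c1 (0.27), Klf4 (0.27), Clec1a (0.24) and Ddx5 (0.24). In the early lung, over 185 cells, they were Efnb2 (0.30), Apoe (0.29), Fmo2 (0.28), Itm2b (0.27) and Tsc22d3 (0.27). Txnip was the 1 gene named in both the lesion and the late lung. The names outside the lesion are the highest of 1353 genes in the tumor, 1433 in the late lung and 1358 in the early lung. Over all pairs of genes the 99th percentile of r was 0.149, 0.223 and 0.229 in that order. The spread of r with the summed 10 genes was not computed, so these names outside the lesion are not read as particular to the 10 genes.

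Other genes of these pathways were set beside the 10. Counts are to be read against all genes compared, of which 24.5% were called higher and 6.68% lower in the tumor over the lesion, with a median log2 ratio of 0.33. Of 36 other immediate early genes, 26 could be compared between the tumor and the lesion, and 9 were called lower and 5 higher, with a median of -0.50. Gadd45g, a growth arrest gene, was at 0 UMIs in the tumor and 228 CPM in the lesion, at least 139-fold lower. Nfkbia had 118 CPM in the tumor and 781 CPM in the lesion (log2 ratio -2.72), and Ctgf was at least 8.06-fold lower. Dusp6, a phosphatase that acts on ERK and is itself induced by ERK signalling, went the other way, at 292 CPM in the tumor and 12.2 CPM in the lesion (4.56). Of 11 heat shock genes, 4 were called lower and 0 higher, foremost Hspa1a, at 56.4 CPM in the tumor and 440 CPM in the lesion (-2.96), and Dnajb1 (-2.07). Of 12 other AP-1 family genes only 6 reached 20 UMIs, and 1 was called, Atf7, higher at 1.01. Of 5 known AP-1 targets that could be compared, Spp1, the osteopontin gene, was at 4.93 CPM in the tumor and 3696 CPM in the lesion (-9.47), Timp1 was lower (-2.11) and Cd44 higher (1.95). Of 13 mRNA decay partners 1 was called, Btg1 (1.29), and of 5 SRF and ternary complex factors 2 were, Elk3 (1.94) and Elk4 (1.01).

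Between the sites, the shares over all genes were 22.1% higher and 11.9% lower in the early lung over the lesion, with a median log2 ratio of 0.18. Among the other immediate early genes 15 of 27 were called higher and 5 lower, with a median of 1.33, where 0 of the 10 genes were higher. Klf2, an endothelial flow-responsive factor, had 820 CPM in the early lung and 39.5 CPM in the lesion (4.38), Dusp1, a MAP kinase phosphatase, had 506 and 55.0 CPM (3.20), Klf4 132.6 and 13.8 CPM (3.28), and Hbegf 93.3 and 0.76 CPM (6.75). Heat shock genes were called lower for 6 of 11, among them Hspd1 (-2.30) and Hspa1a (-2.20), and higher for 1. Of 6 other AP-1 genes 4 were higher, Mafk (2.74), Maff (2.15), Atf7 (1.73) and Atf2 (1.25). Of 14 decay partners 3 were lower, Tob1 (-3.94), Pabpc1 (-2.37) and Zfp36l2 (-1.45), and Btg3 was higher (5.85). Spp1 was the 1 of 5 AP-1 targets called (-3.14), and Elk3 the 1 of 3 ternary complex factors (4.35).

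In the late lung over the tumor, where 20.6% of all genes were called higher and 17.4% lower with a median log2 ratio of 0.01, 14 of 26 other immediate early genes were higher and 6 lower, with a median of 1.76. Klf4 had 289 CPM in the late lung and 1.64 CPM in the tumor (7.24), Dusp1 498 and 7.12 CPM (6.08), Klf2 563 and 10.4 CPM (5.72), and Ctgf, at 0 UMIs in the tumor, was at least 48.7-fold higher. Of 11 heat shock genes 4 were higher, Hspa1a (2.80), Hspa1b (2.26), Hspb1 (2.23) and Dnajb1 (1.72), and 1 was lower. Other called genes were Maf (6.12) and Mafk (80.1 CPM in the late lung and 9.86 CPM in the tumor) of the AP-1 family, Spp1 (7.02), Plaur (6.54) and Hmox1 (2.28) of the targets, with Cd44 at least 2.33-fold lower, and Elk3 (3.40) and Elk4 (2.50). Of 14 decay partners 3 were higher, among them Btg3 (5.53), and 4 lower, among them Btg1 (-1.79), Tob1 (-1.56) and Pabpc1 (-1.49). In the late over the early lung, where 8.7% of all genes were higher and 3.45% lower, 3 of 23 other immediate early genes were higher, Socs3 (2.48), Sgk1 (1.27) and Klf4 (1.10), and 2 lower, among them Plk2 (-1.83). Hspa1a (2.04), Hspa1b (1.17), Elk4 (1.71) and Maf (2.95) were called higher there as well. The sums of endothelial and airway markers moved with these site comparisons, and their part in them was not tested.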

How the data were processed

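The authors deposited counts: whole-number UMI counts per gene and barcode for each of 4 libraries, with all 737280 barcodes listed and no normalization. Per the submitters' processing notes, mm10 was the build. Neither aligner nor counting software nor annotation is named: these are not given in the sources used here. Positions of genes come from GENCODE M21 and promoters from RefSeq GRCm38.p6. The 10 genes, the gene lists and the comparisons were chosen with earlier results of these data known.

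Per library, the UMIs of its cells were added up and expressed as CPM. Log2 ratios add 0.5 counts to each sum and carry exact 95% conditional Poisson intervals. Where a sum was 0, a fold is a bound against 3 counts in that sum. With 1 library per group there is no test, no SD and no check between mice, and the intervals treat UMIs as independent. Free RNA is the sum over barcodes of 1 to 50 UMIs. For shares and co-expression each cell was thinned to 500 UMIs (seed 11), which left out no cell.

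Cells were clustered together with scanpy 1.11.5, without batch integration and without the AP-1 and immediate early genes (2000 variable genes, 30 components, 15 neighbours, Leiden resolution 1.0). A class was named from at least 3 fixed markers among the top 50 genes, or from a marker sum of at least 5% of UMIs, in both cases only where no other class had more markers among the top 10 genes. That sum, and the rule that a leading gene be found in at least 10% of the cluster's cells, were set after seeing the data, and names may differ from the study's own. Scrublet called 3 doublets in the late lung, 0 in the early lung, 4 in the tumor and 0 in the lesion. Doublets were kept, and removed in an alternative.

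All 10 genes are named in each comparison. From the other lists up to 4 called genes per comparison are named, those whose interval bound lies farthest from a ratio of 1. As most like the 10 genes, the rule takes 10 genes in the lesion and the tumor and 5 in each lung, of which 1 in the lesion is not reported here. On simulated counts with counting noise only, 4-fold changes were placed in some genes with at least 100 counts over both libraries. The calls recovered 100.0% of changed genes in late over early lung and 88.0% in early lung over lesion. In late lung over tumor they recovered 99.0% and in tumor over lesion 99.5%. Of the unchanged genes 2.52%, 1.62%, 2.35% and 1.01% were called in the same order, with 4319, 8755, 8637 and 9743 genes compared. Recovery at lower sums, which several of the 10 genes had in the lungs, and with counts gathered in few deep cells was not simulated. The remaining tools were Python 3.11.15, numpy 2.4.6, scipy 1.17.1, pandas 2.3.3 and matplotlib 3.10.9. Alternatives covered the cell filters, scaling, added count, thresholds, free RNA subtraction, thinning and the measure of correlation.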

Additional observations from a re-analysis of the deposited data

Results flagged for a closer look

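For 3 of the 8 genes with at least 20 UMIs in both comparisons the lung lay on opposite sides of the primary site at the early and the late stage, with both counting intervals excluding a ratio of 1. Fos had a log2 ratio of -2.92 in the early lung over the early lesion and of 1.12 in the late lung over the primary tumor. The late lung's 65 Fos UMIs lay in 11 of 210 cells, and a single cell of 10727 UMIs held 20 of them. With called doublets removed the late ratio of Fos was 0.63 and no longer called. Junb had -1.39 in the early lung over the early lesion and 2.49 in the late lung over the primary tumor. Ier2 had -2.18 in the early lung over the early lesion and 0.98 in the late lung over the primary tumor, which became -0.33 when every cell weighed the same. Fosb and Atf3 also lay on opposite sides with intervals that excluded 1, on 3 and 0 UMIs for Fosb and 7 and 5 UMIs for Atf3 in the late lung and the tumor. The share of all genes that lay on opposite sides in this way was not computed, so 3 of 8 is not read as unusual. Over all genes, 11.9% were called lower in the early lung over the lesion and 20.6% higher in the late lung over the tumor. The difference between the stages was not tested, since each group has 1 library. The level of Fos in the libraries behind it was 158 CPM in the late lung, 123 CPM in the early lung, 72.8 CPM in the primary tumor and 945 CPM in the early lesion, so the primary site values were farther apart than the lung values.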

How the results depend on the processing

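No paired analysis was possible because each group has 1 library, and its number only names it and pairs no samples. Called values kept their direction in 153 of 153 recomputations for the tumor over the lesion (151 still called), in 80 of 80 for the early lung over the lesion (73), in 80 of 80 for the late lung over the tumor (74) and in 45 of 48 for the late over the early lung (31). Cells of 1000 to 5000 UMIs, the filters on cell classes and the order of levels without cells over 10000 UMIs were alternatives chosen after seeing the data. In the late over the early lung the 3 genes called higher became 7 with at least 1000 UMIs per cell, 6 at 1.5-fold, 1 with 5 added counts or at least 100 counts, and 0 at 4-fold, without cells over 10000 UMIs, in cells of 1000 to 5000 UMIs or with every cell weighing the same. The share of all genes called higher there, 8.7% in the main setting, was 12.2% with at least 1000 UMIs per cell and 10.9% at 1.5-fold. With 5 added counts it was 3.71%, with at least 100 counts 6.56% and at 4-fold 2.57%. Without cells over 10000 UMIs it was 4.32%, in cells of 1000 to 5000 UMIs 3.62% and with equal weights 1.27%. Reversed values were Egr1, at -0.55 without cells over 10000 UMIs and -1.03 with equal weights, and Ier2, at -0.36 with equal weights. In the early lung over the lesion the 5 lower genes became 3 with at least 1000 UMIs per cell, with 5 added counts or at 4-fold. Over all genes the share called lower went from 11.9% to 10.0%, 4.73% and 6.36% in that order. In the late lung over the tumor the 5 higher became 3 with equal weights, where the share over all genes went from 20.6% to 11.7%. Median ratio scaling placed the median of all genes at -0.25 for the late lung over the tumor, -0.29 for the early lung over the lesion, 0.03 for the tumor over the lesion and 0.17 for the late over the early lung. Median r became 0.69 without thinning in the late lung, 0.23 at 1000 UMIs and 0.44 without thinning in the lesion. In the tumor it became 0.62 without thinning, -0.0571 in cells of at most 10000 UMIs and -0.0117 in luminal-like cells. Genes found per cell at 1000 UMIs and without thinning were 0.949 and 0.99 in the late lung, 0.709 and 0.708 in the early lung, 0.423 and 0.961 in the tumor, and 1.78 and 3.04 in the lesion. The cause of each change was not tested. Depth limits the lungs most, since 9 of the 10 genes held 40 UMIs or fewer in the early lung.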
